A study of Mus musculus with 5 samples.

Results

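Chemokine ligands were examined as 10 genes, which were Ccl2, Ccl3, Ccl4, Ccl5, Ccl6, Ccl9, Cxcl2, Cxcl9, Cxcl10 and Cxcl16. They were chosen by name, with every probe that the platform annotation gives to them, which made 14 probes of 45281 on the array and 10 genes of 19057 with a named probe. Total bone marrow cells of both tibias had been taken from male BALB/c mice, an inbred strain, that were 7 to 8 weeks old. One group was sham-irradiated and is called 0 DAI, where DAI stands for days after irradiation (3 DAI is also written as day 3). The other groups had been exposed once to 4 Gy of gamma-radiation over the whole body and were sampled at 3, 7, 11 and 21 DAI. Each of the 5 groups has 1 array, so no value has a replicate error and no test between times was possible. The methods give 6 to 8 mice at each time for collecting cells, and elsewhere RNA of 4 irradiated mice and 1 sham mouse for the arrays, so whether an array holds a single mouse or a pool is not settled. Values are array intensities, called signals here, and a signal under 64 was treated as background and raised to that floor before a ratio was formed. A log2 ratio of at least 1 in size, that is 2-fold, was called higher or lower. Where 1 of the 2 signals was under the floor, the ratio is a bound and is written as at least or at most.

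Chemokines are small secreted proteins that guide leukocytes along a gradient by binding G protein-coupled receptors. The CC and CXC families are named for the spacing of the first cysteines of the mature protein. In the bone marrow, chemokines hold stem cells and neutrophils in place, draw monocytes out into the blood, and are made by macrophages, granulocytes, lymphocytes and stromal cells. Many chemokine genes are switched on quickly by inflammatory signals through the transcription factor NF-kB, and Cxcl9 and Cxcl10 are known targets of interferons.

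In these arrays the 10 ligands followed several courses. The genes of the macrophage inflammatory proteins, Ccl3 and Ccl4, and the neutrophil-drawing Cxcl2 had high signals at 0 and 3 DAI. On their brightest probes they were at least 5.77-fold lower at 7, 11 and 21 DAI. Ccl6 and Ccl9, which encode CC chemokines of rodent myeloid cells, were lowest at 11 DAI and rose again by 21 DAI. Cxcl9 was above the floor at 3 and 11 DAI alone. Ccl2, Cxcl10 and Cxcl16 had their highest signals at 3 DAI and lay at or near the floor otherwise.

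**Figure D1:**
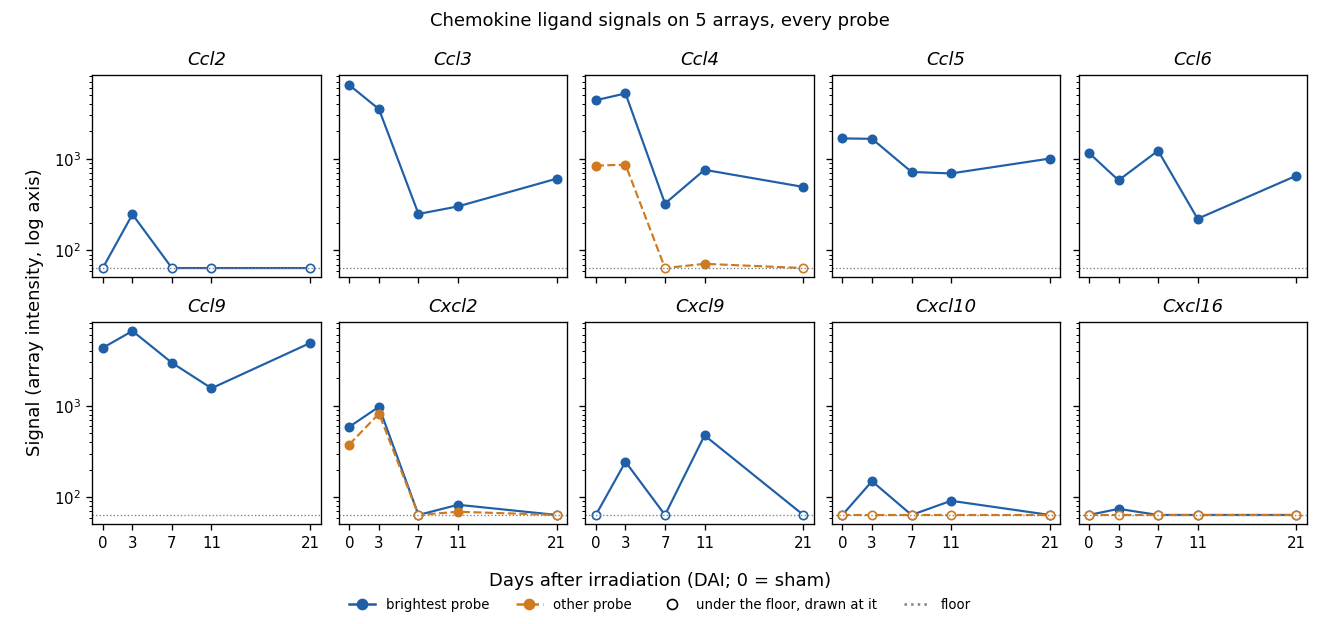
Signal of every probe of the 10 chemokine ligands (array intensity, log axis) against days after irradiation, with 1 array per time and 0 for the sham array. Blue points are the brightest probe of a gene, orange points another probe, open points lie under the floor of 64 and are drawn at it. Ccl3, Ccl4 and Cxcl2 drop between 3 and 7 DAI, and Cxcl9 peaks at 3 and 11 DAI.

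The stretches upstream of the genes are shown for 4 members on which the results turn, Ccl3 and Cxcl2 of the ligands that were low after 3 DAI, and Cxcl9 and Cxcl10 of those that peaked after irradiation. RefSeq promoter entries (build GRCm38.p6) matched 6 of the 10 members, which were Ccl3, Ccl6, Ccl9, Cxcl2, Cxcl9 and Cxcl10. Each line gives the 250 bases before the annotated start, 5′ to 3′ on the strand of the gene, and capitals mark matches to the motifs searched.
Ccl3 (chr11:83649379-83649628, minus strand): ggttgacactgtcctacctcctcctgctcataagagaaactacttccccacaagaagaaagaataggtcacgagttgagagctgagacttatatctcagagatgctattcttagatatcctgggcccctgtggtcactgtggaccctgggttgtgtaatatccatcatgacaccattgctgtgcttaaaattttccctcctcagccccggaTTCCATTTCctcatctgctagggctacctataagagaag
Cxcl2 (chr5:90903649-90903898, plus strand): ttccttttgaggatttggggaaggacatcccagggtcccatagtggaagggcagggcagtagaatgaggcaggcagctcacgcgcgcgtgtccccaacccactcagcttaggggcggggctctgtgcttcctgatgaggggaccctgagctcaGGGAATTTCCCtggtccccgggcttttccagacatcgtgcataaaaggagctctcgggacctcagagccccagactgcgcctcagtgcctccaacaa
Cxcl9 (chr5:92328080-92328329, minus strand): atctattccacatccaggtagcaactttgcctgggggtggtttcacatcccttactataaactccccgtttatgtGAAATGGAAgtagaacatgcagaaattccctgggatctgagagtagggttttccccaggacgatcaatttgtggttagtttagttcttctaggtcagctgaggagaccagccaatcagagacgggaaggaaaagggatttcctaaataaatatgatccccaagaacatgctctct
Cxcl10 (chr5:92348890-92349139, minus strand): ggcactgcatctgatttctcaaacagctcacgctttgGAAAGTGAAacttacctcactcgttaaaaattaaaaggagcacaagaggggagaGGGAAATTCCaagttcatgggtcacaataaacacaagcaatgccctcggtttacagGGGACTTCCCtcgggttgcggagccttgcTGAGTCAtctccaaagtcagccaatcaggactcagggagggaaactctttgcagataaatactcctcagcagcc
The motifs were the NF-kB consensus, the core of the IRF element GAAANNGAA and the AP-1 site TGANTCA, each searched on both strands. The NF-kB consensus was matched in 3.9% of 32851 promoter windows of the same length, the IRF core in 7.13% and the AP-1 site in 6.75%. The Cxcl2 stretch held the NF-kB consensus as 2 overlapping matches, GGGAATTTCC on its own strand and 1 on the other strand, which span bases -97 to -87 from the start. The Cxcl10 stretch held it at -159 and -103, with an IRF core at -213 and an AP-1 site at -74. The Cxcl9 stretch held an IRF core at -175, and the Ccl3 stretch held an IRF core on the other strand at -39. Ccl9, not printed, had an NF-kB match at -35 and an AP-1 site at -53, and Ccl6 had a match to none of the 3 motifs. A match describes the letters and does not show that a factor binds there.

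Across the arrays, the mean signal was 535.7 on each, the median lay between 10.3 and 11.9, and between 29.8% and 30.5% of the probes were above the floor. The median log2 ratio of all genes to 0 DAI was 0.12, 0.11, 0.12 and 0.17 at 3, 7, 11 and 21 DAI. Scaling each array to a common median brought these medians to 0.02, -0.01, 0.00 and 0.03, and changed the numbers of higher and lower genes from 471 and 355 to 389 and 446 on day 3, from 338 and 281 to 225 and 362 on day 7, from 498 and 433 to 351 and 540 on day 11, and from 212 and 306 to 126 and 385 on day 21. The neutrophil and erythroid marker lists had a signal over the floor for all of their 11 and 5 genes. The median log2 ratio of the neutrophil list lay between -0.22 and 0.03 at the 4 times. Of its 11 genes, 0 were higher and 1 was lower on day 3, Mmp8 at -1.76. Mmp8, the dimmest of the list, read 1309, 387, 2618, 675 and 1605 over the 5 arrays. It was also lower on day 11 with quantile normalization and with median scaling. Whether the ratios of the brightest genes of the list are flattened was not tested. Of the 5 erythroid markers, 2 were lower on day 3 (1 with quantile normalization) and 4 on day 21, where their median was -2.08. The single sham array is the denominator of all 4 ratios of a gene. In total marrow, fewer cells of a type and less RNA per cell cannot be told apart.

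Ccl3 encodes a macrophage inflammatory protein that binds Ccr1 and is known to restrain the proliferation of blood stem and progenitor cells. Its signal was 6409 in the sham array, 3500 on day 3, 250 on day 7, 302 on day 11 and 608 on day 21. All 5 signals were above the floor, the 2 early ones high and the 3 later ones low, with no overlap. The log2 ratio was -0.87 at 3 DAI, within 2-fold. It was -4.68 on day 7, -4.41 on day 11 and -3.40 on day 21, which is 25.6-, 21.2- and 10.5-fold lower. At 11 DAI, Ccl3 had the lowest ratio but 1 among the 7530 genes measured on both arrays, its rank from the lowest being 2. Its rank was 3 of 7531 on day 7 and 8 of 7563 on day 21. The step from 3 to 7 DAI, which does not use the sham array, was -3.81 on the log2 scale, 14.0-fold down.

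Ccl4 encodes the other macrophage inflammatory protein and lies next to Ccl3 on chromosome 11. Its brightest probe read 4378 in the sham array, 5198 on day 3, 325 on day 7, 759 on day 11 and 493 on day 21. Its second probe read 844 and 864 at 0 and 3 DAI, 71.2 at 11 DAI, and 21.3 and 38.8 at 7 and 21 DAI, both under the floor. Both probes were thus level from 0 to 3 DAI and low from 7 DAI on. The log2 ratio of the brightest probe was 0.25 on day 3, -3.75 on day 7, -2.53 on day 11 and -3.15 on day 21. The second probe gave 0.03 on day 3, at most -3.72 on days 7 and 21 and -3.57 on day 11. From 3 to 7 DAI the brightest probe fell 16.0-fold. Unlike Ccl3, which changed by 0.27 from 7 to 11 DAI, Ccl4 was 2.34-fold higher at 11 than at 7 DAI, a log2 ratio of 1.23.

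Cxcl2 encodes a ligand of Cxcr2 that draws neutrophils and helps to release them from the marrow. Its brightest probe read 589 in the sham array, 976 on day 3, 12.7 on day 7, 82.7 on day 11 and 38.8 on day 21. Its other probe read 377, 822, 51.7, 69.4 and 24.4 in the same order. On both probes the signal was highest at 3 DAI and under the floor at 7 and 21 DAI. The log2 ratio of the brightest probe was 0.73 on day 3, at most -3.20 on days 7 and 21, that is at least 9.20-fold lower, and -2.83 on day 11. The other probe passed 2-fold on day 3, at 1.12, and was at most -2.56 on days 7 and 21 and -2.44 on day 11. From 3 to 7 DAI the brightest probe was at least 15.2-fold lower.

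Ccl5 encodes a CC chemokine that draws T cells and is itself made by T and NK cells. Its signal was 1673 in the sham array, 1657 on day 3, 720 on day 7, 693 on day 11 and 1008 on day 21. The first pair of arrays was level, and the other 3 were lower. The log2 ratio was -0.01 on day 3, -1.22 on day 7, -1.27 on day 11 and -0.73 on day 21, so that the 2-fold size was passed on days 7 and 11. The summed signal of the 11 T and NK cell markers was 30754 in the sham array, 18733 on day 3, 18771 on day 7, 21286 on day 11 and 23586 on day 21. Of these markers, Cd4, Cd8a and Gzmb were at the floor on all 5 arrays, and 0, 0, 2 and 0 were higher and 1, 3, 1 and 0 lower at the 4 times. With quantile normalization and with median scaling 1 of them was higher at 11 DAI, and with median scaling 2 were lower at 3 DAI and 2 at 21 DAI. Much of that sum is Prf1, the perforin gene, which read 18140 in the sham array and 3546 on day 3. The median log2 ratio of the 7 markers with a ratio was 0.69 on day 3 and -0.51 on day 7. In the step from 3 to 7 DAI it was -1.28, with 1 of 7 higher and 5 lower, where Ccl5 was at -1.20 and the median of all genes at -0.03. The part of T and NK cell number in the Ccl5 values was not tested.

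Ccl6 and Ccl9 are CC chemokine genes of rodents, expressed by myeloid cells, whose products bind Ccr1. The Ccl6 signal was 1164 in the sham array, 583 on day 3, 1229 on day 7, 221 on day 11 and 655 on day 21. It went down, up, down and up over the 5 arrays. The log2 ratio of Ccl6 to 0 DAI was -0.997 on day 3, just inside 2-fold, 0.08 on day 7, -2.39 on day 11 and -0.83 on day 21. At 3 DAI it passed the 2-fold size under quantile normalization, at -1.10, and under median scaling, at -1.09. Between neighbouring times it rose by 1.08 on the log2 scale from 3 to 7 DAI, fell by 2.47 from 7 to 11 DAI, 5.55-fold, and rose by 1.57 from 11 to 21 DAI. Ccl6 was the single member with its highest signal at 7 DAI.

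The Ccl9 signal was 4298 in the sham array, 6574 on day 3, 2950 on day 7, 1553 on day 11 and 4865 on day 21. It thus peaked on day 3, was lowest on day 11, and was back above its sham signal on day 21, within 2-fold. The log2 ratio to 0 DAI was 0.61 on day 3, -0.54 on day 7, -1.47 on day 11 and 0.18 on day 21. From 11 to 21 DAI it rose 3.13-fold, a log2 ratio of 1.65. The 9 monocyte and macrophage markers, in which no gene was at the floor on all arrays, had a summed signal of 48002, 46514, 49944, 33675 and 48532 at 0, 3, 7, 11 and 21 DAI, lowest at 11 DAI as Ccl6 and Ccl9 were. Most of that sum is Lyz2, the lysozyme gene of myeloid cells. At 11 DAI, Csf1r, the receptor gene of macrophage colony-stimulating factor, was at a log2 ratio of -1.16 and Cd14, the lipopolysaccharide co-receptor gene, at -2.70, whereas the complement gene C1qb was at least 2.73 and C1qc at 2.33. The summed signal of the 11 neutrophil markers was 386089.2, 347964.5, 385819.0, 344850.2 and 404874.9 at 0, 3, 7, 11 and 21 DAI. That sum went down, up, down and up as Ccl6 did, over a smaller range. The part of monocyte and neutrophil numbers in the Ccl6 and Ccl9 values was not tested.

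Cxcl9 encodes a ligand of Cxcr3, the receptor of activated T and NK cells, and is induced by interferon-gamma. Its signal was 35.4 in the sham array, 244 on day 3, 10.6 on day 7, 474 on day 11 and 24.9 on day 21. It was above the floor at 3 and 11 DAI only, and higher at 11 than at 3 DAI. Against the floor it was at least 3.81-fold higher on day 3 and at least 7.41-fold higher on day 11, log2 ratios of at least 1.93 and 2.89. No ratio to 0 DAI could be formed at 7 and 21 DAI, where both signals were under the floor. From 11 to 21 DAI the signal fell at least 7.41-fold.

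Cxcl10 encodes another interferon-induced ligand of Cxcr3. Its brightest probe read 63.2 in the sham array, just under the floor, 150 on day 3, 11.5 on day 7, 91.4 on day 11 and 50.2 on day 21. Its other probe was under the floor on all 5 arrays, between -31.1 and 10.1. The course of the brightest probe had its 2 signals above the floor at the same times as Cxcl9, with the higher one at 3 DAI instead. The log2 ratio was at least 1.23 on day 3 and at least 0.51 on day 11. The call at 3 DAI was lost with a floor of 100, at 0.58, with a pseudocount of 50, at 0.82, and with the mean over both probes, at 0.17.

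Ccl2 encodes the ligand of Ccr2 by which inflammatory monocytes leave the marrow. Its signal was 59.2 in the sham array, 248 on day 3, -0.963 on day 7, 12.7 on day 11 and -1.16 on day 21. Only the array at 3 DAI was above the floor, at least 3.87-fold higher than the sham array, a log2 ratio of at least 1.95. Cxcl16 encodes a membrane-bound ligand of Cxcr6 that also takes up oxidized lipoprotein. Its brightest probe read -1.18, 74.7, -1.23, 3.96 and 2.24 over the 5 arrays, and its other probe lay between -10.9 and 19.5. It too was above the floor at 3 DAI alone, by a log2 ratio of at least 0.22, which is inside 2-fold. With a floor of 32 or a pseudocount of 50, Cxcl16 passed the 2-fold size at 3 DAI, at 1.22 and 1.32.

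**Figure D2:**
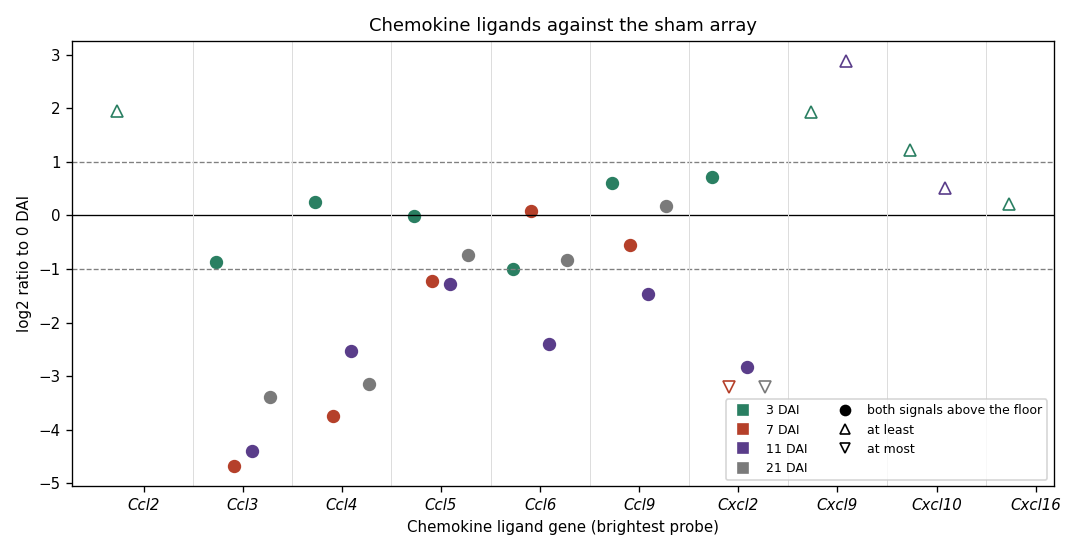
Log2 ratio of each chemokine ligand to 0 DAI (vertical axis, brightest probe) for the 4 times, with 1 array each. Filled circles are measured above the floor on both arrays, open triangles are bounds, and dashed lines mark 2-fold. The 3 lowest genes at 7 and 21 DAI are Ccl3, Ccl4 and Cxcl2, while the triangles of Ccl2, Cxcl9 and Cxcl10 lie above 2-fold at 3 DAI.

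At 3 DAI all 10 ligands were above the floor, against 6 in the sham array, 5 on day 7, 8 on day 11 and 5 on day 21. Over all probes the share above the floor was 30.2%, 30.5%, 29.8%, 30.0% and 30.1% at 0, 3, 7, 11 and 21 DAI. Of the 10, 6 had their highest signal on day 3, 2 in the sham array (Ccl3 and Ccl5), 1 on day 7 and 1 on day 11. Among the 6, Ccl2, Cxcl10 and Cxcl16 lay at or near the floor on the other arrays. The share of all genes with their highest signal on each array was not counted, so these numbers have no background. At least 2-fold higher at 3 DAI were Ccl2, Cxcl9 and Cxcl10, 3 of 10, where 5.56% of all genes with a ratio were higher. None of the 10 was lower, where 4.19% of all genes were. All 3 higher ligands were under the floor at 0 DAI, so their ratios had to be above 0, and none of the 6 ligands measured on both arrays passed the 2-fold size. The median of the 10 ratios was 0.43, with 4 bounds among them.

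Stromal and megakaryocyte markers were also high on the array at 3 DAI. The 12 stromal and endothelial markers had a summed signal of 12496 on day 3, against 2629 in the sham array and between 1654 and 2728 at the later times, with 7 of the 10 markers above the floor higher on day 3 and Lepr and Pdgfrb at the floor on all arrays. The 5 megakaryocyte markers summed to 2310 on day 3 and to 627, 372, 1268 and 714 on days 0, 7, 11 and 21, and 5 of 5 were higher on day 3. The sums of these lists were high on day 3 with Ccl2, Cxcl9 and Cxcl10. Cxcl9 was higher still at 11 DAI, at 474 against 244, where the stromal sum was 1654 and the megakaryocyte sum was 1268. Most of the stromal sum outside day 3 is Vcam1, which read 1896, 4653, 2106, 1126 and 2238 over the 5 arrays. The low stromal sum at 11 DAI thus rests mainly on that gene. The part of those cells in the ligand signals was not tested. The summed signal of the monocyte and macrophage list was not higher on day 3, at 46514 against 48002. Most of that sum is Lyz2, at 40239 against 44426. Of the 9 genes of the list, 4 were higher and 0 lower on day 3, and their median log2 ratio was 0.65, against 0.12 for all genes.

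**Figure D3:**
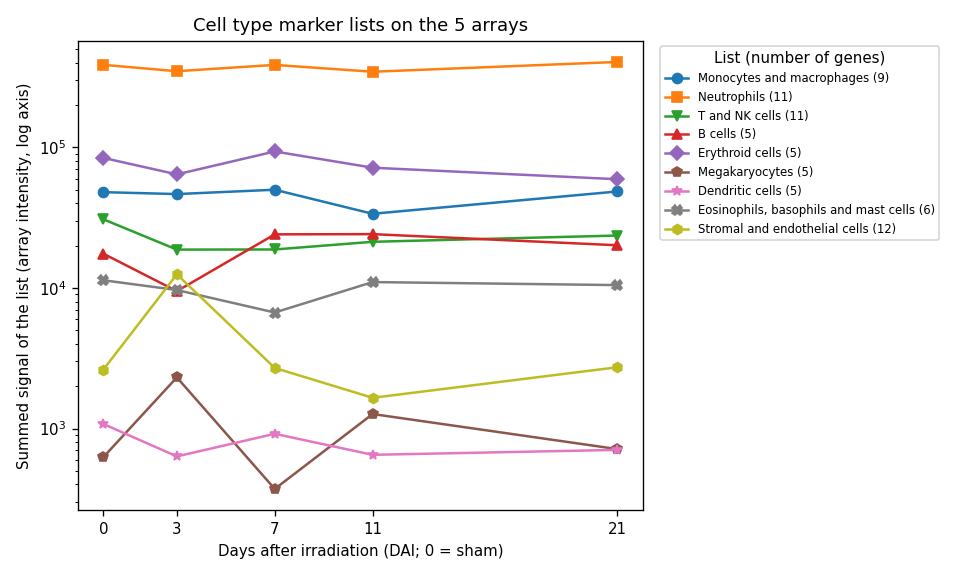
Summed signal of 9 cell type marker lists (array intensity, log axis, signals below 0 counted as 0) against days after irradiation, with 1 array per time. The stromal list stands at 12496 on day 3 against 2629 in the sham array, and the monocyte list is lowest on day 11, at 33675.

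At 7 DAI, 4 of the 10 ligands were at least 2-fold lower, which were Ccl3, Ccl4, Ccl5 and Cxcl2, where 3.4% of all genes with a ratio were lower. None was higher, where 4.09% of all genes were. Ccl6 and Ccl9 lay within 2-fold, and Ccl2, Cxcl9, Cxcl10 and Cxcl16 were under the floor on both arrays and had no ratio. At 11 DAI, 6 were lower, Ccl3, Ccl4, Ccl5, Ccl6, Ccl9 and Cxcl2, all measured above the floor on both arrays, where 5.21% of all genes were lower. Cxcl9 alone was higher, where 6.0% of all genes were, Cxcl10 lay within 2-fold at its bound, and Ccl2 and Cxcl16 had no ratio. At 21 DAI, 3 were lower, Ccl3, Ccl4 and Cxcl2, where 3.69% of all genes were lower, and none was higher, where 2.56% were. Ccl5, Ccl6 and Ccl9 were by then within 2-fold of the sham array. The medians of the ratios that could be formed were -2.21 over 6 ligands on day 7, -1.93 over 8 on day 11 and -1.99 over 6 on day 21. With median scaling Cxcl10 crossed the floor at 0 DAI, and the medians at 7 and 21 DAI became -1.34 and -0.97 over 7 ligands.

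**Figure D4:**
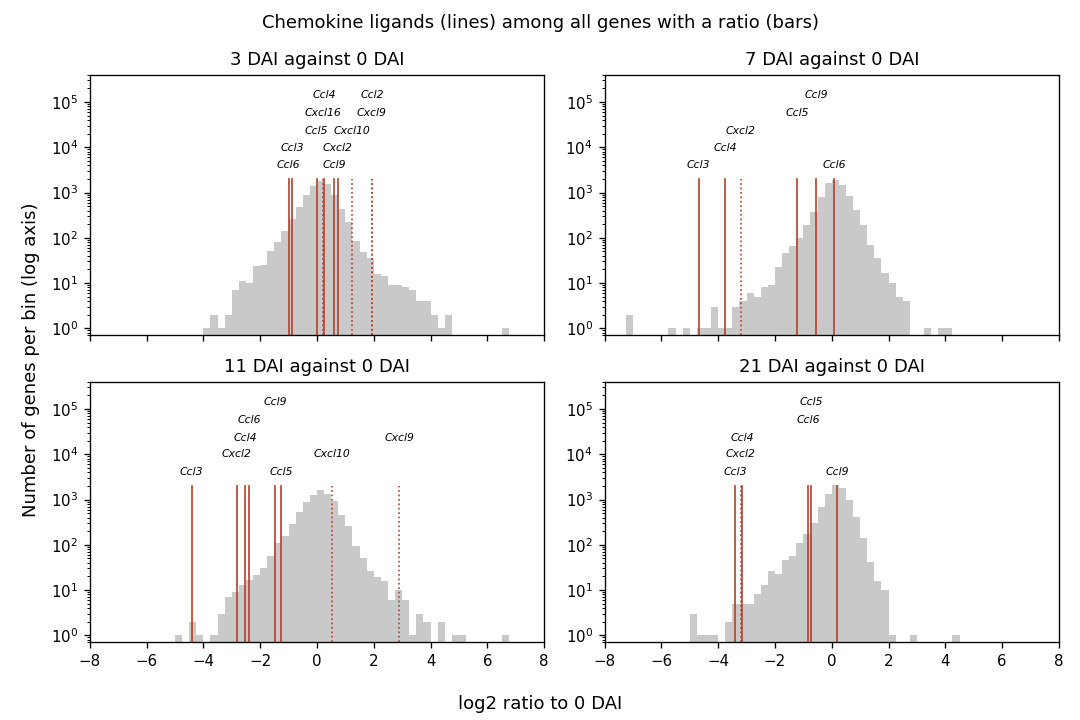
Number of genes in bins of the log2 ratio to 0 DAI (bars, log axis) at each of the 4 times, with the chemokine ligands drawn as lines, dotted where the ratio is a bound. Ccl3 lies at the far left at 7 and 11 DAI, at -4.68 and -4.41, and Cxcl9 lies at the right at 11 DAI, at 2.89 or more.

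The steps between irradiated arrays leave the sham array out. From 3 to 7 DAI, 8 of the 10 ligands were at least 2-fold lower, where 6.07% of all genes were, and Ccl6 alone was higher, where 7.13% of all genes were. Cxcl16 was at most -0.22. Of the 8, Ccl2, Cxcl2, Cxcl9 and Cxcl10 were under the floor at 7 DAI, and the other 4 were measured on both arrays. From 7 to 11 DAI, Ccl4 and Cxcl9 were higher, where 5.75% of all genes were, and Ccl6 was lower, where 9.21% of all genes were. From 11 to 21 DAI, Ccl3, Ccl6 and Ccl9 were higher, where 6.14% of all genes were, and Cxcl9 was lower, where 5.83% of all genes were. The rise of Ccl3 in that last step, 1.01 on the log2 scale, fell inside 2-fold with quantile normalization and with median scaling, and the other calls of the 3 steps were the same with both.

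Ccl5, Ccl9, Ccl6, Ccl3 and Ccl4 are 5 consecutive protein-coding genes on mouse chromosome 11 (RefSeq, GRCm38.p6), and Cxcl2, Cxcl9 and Cxcl10 lie on chromosome 5. Neighbours in the chromosome 11 group did not all share a course. Ccl3 and Ccl4 differed by at most 1.04 in mean-centred log2 signal on any array, and Ccl6 and its neighbour Ccl3 by up to 2.92. Ccl5 and Ccl9 differed by at most 0.60. Ccl4 and Cxcl2, which lie on different chromosomes, both dropped after 3 DAI, with Cxcl2 under the floor on days 7 and 21. Cxcl9 and Cxcl10 are close neighbours with 1 protein-coding gene between them, and Cxcl9 was at its highest on day 11 where Cxcl10 was at its highest on day 3.

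For the 6 members whose log2 signals spanned at least 2, the genes closest in course were sought among 8879 genes, by the largest difference in mean-centred log2 signal over the 5 arrays, with signals under the floor raised to it. A difference is given only between genes measured above the floor on all 5 arrays, since any other is set by the floor. The genes named for Ccl4 were Cxcl2, Rgs1, a regulator that shortens G protein signaling, and Cd69, an early activation antigen of lymphocytes. Cd69 was within 0.53 of Ccl4 on every array, and the Rgs1 signal was 1195, 1207, 24.3, 145 and 73.1, under the floor on day 7. For Cxcl2, itself under the floor on days 7 and 21, they were Ccl4, Rgs1 and Atf3. Ccl3 had no close companion. Fos, an early response transcription factor gene, lay within 0.96 of it, and Atf3, a stress-induced transcription factor gene, and Cxcl2 were under the floor on days 7 and 21, and Atf3 also on day 11, where Ccl3 was not.

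For Cxcl9, under the floor on 3 of the 5 arrays, the genes named were Lgals3bp, Ifi44l and Phf11a. Lgals3bp, which encodes a secreted galectin-binding glycoprotein, read 616, 3331, 718, 5814 and 703, all above the floor, and so showed both peaks without help of the floor. Ifi44l and Phf11a were under the floor on the same 3 arrays as Cxcl9. Ccl9 was closest to Mgl2, a lectin gene of macrophages, at 0.21, then Tmem141 at 0.27 and the chemokine receptor gene Cx3cr1, which was under the floor on day 11. The genes named for Ccl6 were Gm1673, under the floor on day 11, Phlda1 at 0.28 and Gsdmc2 at 0.28. With 5 arrays, many genes can lie close to a given course, and these differences are a description only.

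**Figure D5:**
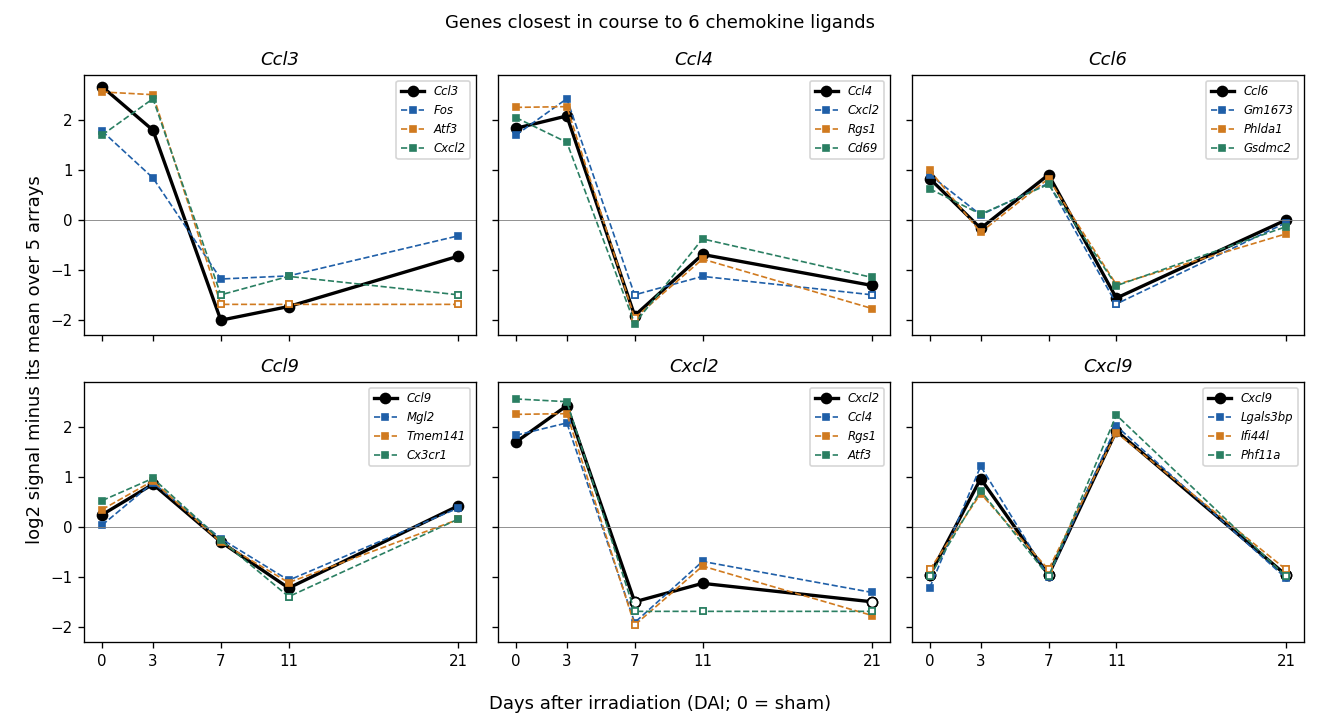
Log2 signal minus its mean over the 5 arrays (vertical axis) against days after irradiation for 6 chemokine ligands (black) and the 3 genes closest to each (colours), with 1 array per time. Open symbols are signals under the floor, raised to it. Ccl4, Cxcl2 and Rgs1 drop between 3 and 7 DAI, and Lgals3bp has both peaks of Cxcl9.

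Other chemokine ligands were taken from a list of 28 genes with a named probe, of which 19 were at the floor on all arrays, among them Cxcl3, Cxcl11 and Cxcl13. Of the other 9, 6 were higher and none lower on day 3, 0 and 2 on day 7, 3 and 0 on day 11, and 1 and 1 on day 21. Cxcl12, by which stromal cells hold stem cells, read 1252, 8167, 1382, 1210 and 687 on its brightest probe, a log2 ratio of 2.71 on day 3. Its other 3 probes, at or near the floor otherwise, were also above it on day 3. Cxcl14 was at least 2.63 and Cxcl1, a neutrophil-drawing relative of Cxcl2, at least 1.92, both above the floor at 3 DAI alone. Cxcl1 thus shared the high array of Cxcl2 on day 3 but was under the floor in the sham array. The platelet chemokine genes Pf4 and Ppbp were higher on day 3, at 1.23 and 4.73, lower on day 7, at -3.05 and at most -1.11, and higher on day 11, at 1.15 and 2.15. Xcl1, which T and NK cells make, was at 1.92 on day 3 and 1.04 on day 11, the latter below 2-fold with median scaling of the arrays, where 2 of the list were higher on day 11, and at most -1.11 on day 21. With median scaling 2 of the list were lower on day 21, Cxcl12 and Xcl1.

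The receptors of the ligands showed courses of their own. Of 23 receptor genes with a named probe, 10 were at the floor on all arrays, Ccr1 of Ccl3, Ccl6 and Ccl9 and Cxcr6 of Cxcl16 among them. Of the other 13, 2 were higher and 3 lower on day 3. Of the 12 with a ratio at each later time, 1 was higher and 4 lower on day 7, 1 and 5 on day 11, and 1 and 4 on day 21. Ccr2, the receptor of Ccl2, read 222, 236, 109, 87.6 and 217 over the 5 arrays, with log2 ratios of -1.03 on day 7 and -1.34 on day 11. Ccr2 was thus lower at 7 and 11 DAI and was back near its sham signal at 21 DAI. Ccl2 was under the floor at each of these times and in the sham array, so their courses could not be compared there. Cxcr2, the receptor of Cxcl2, read 2250, 1429, 4819, 2365 and 3534 and was at 1.10 at 7 DAI. Cxcl2 was under the floor on that array and also at 21 DAI, where Cxcr2 was at 0.65. The Cxcr2 call at 7 DAI was lost with quantile normalization and with median scaling, where none of the receptors was higher. Cxcr3, the receptor of Cxcl9 and Cxcl10, read 96.5, 200, 135, 154 and 89.1, highest at 3 DAI at a log2 ratio of 1.05, which fell inside 2-fold with median scaling.

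Further receptor genes past 2-fold were Ccrl2, an atypical receptor gene that leukocytes induce on activation, which read 1524, 936, 193, 151 and 150 and was at -2.98, -3.34 and -3.34 at 7, 11 and 21 DAI. Ccrl2 was the one of them that, like Ccl3, was at least 2-fold lower at 7, 11 and 21 DAI and not at 3 DAI with both signals measured. Ccr7, which guides lymphocytes to lymph nodes, was at most -2.60 on days 3 and 7, -2.14 on day 11 and -2.33 on day 21. Cx3cr1 was at most -1.92 on day 11, Ackr4 at -1.30 on day 11, Ackr1 at -1.02 on day 3 and at most -2.42 on day 21, and Cxcr4, the receptor of Cxcl12, at -1.04 on day 3. Ccr6 was at most -1.44 on day 7 and at -1.36 on day 21, Cxcr5 at 1.55 on day 11, and Cxcr1 at least 1.09 on day 3 and 1.38 on day 21.

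Inflammatory cytokine and NF-kB genes were counted beside Ccl3, Ccl4 and Cxcl2. Of 24 with a named probe, 19 had a signal over the floor on some array and a ratio on day 3, when 2 were higher and 1 lower. Of the 15 with a ratio at each later time, 0 were higher and 4 lower on day 7, 1 and 5 on day 11, and 1 and 2 on day 21. The medians were 0.03, -0.28, -0.43 and -0.39. The cytokine gene Tnf was at -2.22 and Il1b at -2.68 on day 11. Nfkbiz, which encodes a nuclear NF-kB regulator, was at -1.17, -2.56, -3.17 and -2.70 at 3, 7, 11 and 21 DAI. Tnfaip3 was at -0.38, -1.90, -1.94 and -1.65 at the same times. Nfkbia, the NF-kB inhibitor gene, and Tnfaip2, both among the brightest of the list, stayed within 2-fold at all 4 times. Tnf was also lower at 21 DAI with quantile normalization and with median scaling, and Il1b at 7 and 21 DAI with median scaling. The list thus held 2 genes, Nfkbiz and Tnfaip3, that were low at 7, 11 and 21 DAI with the 3 ligands. Of these, Nfkbiz was already lower on day 3, unlike the ligands. Other genes of the list were low at some of these times or were not low. At 3 DAI 1 was higher and 2 were lower with quantile normalization, and 2 and 2 with median scaling, which made 5 lower at 7 DAI. At 21 DAI 3 were lower with quantile normalization and 4 with median scaling.

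A list of interferon pathway genes, drawn up for interferon-gamma, was counted beside Cxcl9 and Cxcl10. Which type of interferon its values follow was not tested. Of 27 with a named probe, 21 had a signal over the floor somewhere among the 5 arrays. Of those with a ratio, 3 of 20 were higher on day 3, 0 of 19 on day 7, 11 of 20 on day 11 and 3 of 19 on day 21, and 2, 1, 0 and 0 were lower. The median was 1.13 at 11 DAI, and at the other times it lay between 0.15 and 0.31. The GTPase genes Gbp2 and Igtp were at 4.31 and 3.59 at 11 DAI and the transcription factor gene Irf7 at 2.98, whereas the brightest, Irgm1, was at -0.27 and Irf2 at -0.15. Psmb8, an immunoproteasome subunit gene, was at 1.54. With quantile normalization and with median scaling, 2 were lower at 7 DAI and 1 was higher at 21 DAI, and at 11 DAI 10 were higher with median scaling. The Ifng signal itself was 71.8 on day 3 and under the floor on the other 4 arrays, 34.2 on day 11.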

How the data were processed

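The members were all probes that the platform annotation gives to 10 chemokine ligand genes, and the members and gene lists were chosen with earlier results of these data known. RNA of total marrow was copied from an oligo(dT) primer, labelled with biotin and hybridized to Illumina MouseWG-6 BeadChips. The deposited values are intensities on a linear scale, which the authors read with GenomeStudio (2010.2 per the labels), subtracted of background and scaled by average normalization, and values below 0 were kept (14742 to 16168 probes per array). They were used with no further scaling. Raw signals with detection p-values, 10 columns in all, were left out because no label matches their column names, so the floor of 64 is a fixed choice and not a detection limit. Bead numbers and depth are unknown, and 5 single arrays limit the precision.

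Of the probes, 34885 had 1 gene symbol, 18 had several and 10378 are not listed in the annotation. Only the first were used. Symbols were updated through Entrez identifiers, of which those of 18992 genes were found in RefSeq. The probe with the highest mean signal stood for a gene. Signals were raised to 64, a log2 ratio was formed unless both signals were under it, and 2-fold was called. With 1 array per time no test, SD or p-value was computed. The percentages of all genes called are those of the same rule over 8256 to 8471 genes.

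Named were all members, other ligands and receptors past 2-fold, the 3 brightest genes and those with the 3 largest ratios at 7 or 11 DAI of the inflammatory and interferon lists, markers at the floor, and for members spanning at least 2 on the log2 scale the 3 genes closest in course. Csf1r, Cd14, C1qb, C1qc, Ifng, Lyz2, Mmp8, Vcam1 and Tnfaip3 beside them were picked after their values were seen. So were some listed genes at the floor. Alternatives were quantile normalization, median scaling over probes above the floor on all arrays, floors of 100 and 32, a pseudocount of 50, the mean over probes, a 3-fold size, ratios measured on both arrays only, and the mean log2 signal of the other 3 irradiated arrays as baseline. The computation was tested on simulated data. Scripts ran in Python 3.11.15 with numpy 2.4.6, pandas 2.3.3 and, for the plots, matplotlib 3.10.9.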

Additional observations from a re-analysis of the deposited data

Results flagged for a closer look

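The results here are probes that passed 2-fold in opposite directions at different times after irradiation. Each compares single arrays, all against the same 0 DAI array, and the differences between times were not tested.

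The second probe of Cxcl2 was at a log2 ratio of 1.12 on day 3 and at most -2.56 on day 7, -2.44 on day 11 and at most -2.56 on day 21. The brightest probe of the gene was at 0.73 at 3 DAI, inside 2-fold. Among other chemokine ligands, Pf4 was at 1.23 on day 3, -3.05 on day 7 and 1.15 on day 11. Both probes of Ppbp ran the same way, 1 at 4.73, at most -1.11, 2.15 and 2.10 at 3, 7, 11 and 21 DAI, and the other at 4.33, at most -1.12, 1.67 and 1.60. The summed signal of the 5 megakaryocyte markers was 627, 2310, 372, 1268 and 714 at 0, 3, 7, 11 and 21 DAI, and its part in the Pf4 and Ppbp values was not tested. Xcl1 was at 1.92 on day 3, 1.04 on day 11 and at most -1.11 on day 21.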

How the results depend on the processing

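No ratio past 2-fold of a chemokine ligand changed its sign under the alternatives tried. Of the 28 to 30 ratios of members under each alternative, all but 1 stayed on their side of 2-fold with quantile normalization, median scaling, floors of 100 and 32 and the mean over probes, and all but 2 with the pseudocount. The number of ligands at least 2-fold higher at 3 DAI was 3, and it was 0 among ratios measured on both arrays only, since the 3 are bounds. The number lower at 3 DAI was 0, and it was 1 (Ccl6) with quantile normalization and 1 with median scaling. The number higher at 11 DAI was 1, and it was 0 among ratios measured on both arrays. A baseline made of the other 3 irradiated arrays (their mean log2 signal), which leaves the sham array out, moved most: 7 ligands were higher at 3 DAI, 1 was higher at 7 DAI in place of 0, and 3 were lower at 11 DAI in place of 6. Under it 18 of 30 ratios stayed on their side of 2-fold, and Ccl3 was at 3.29 at 3 DAI and -0.08 at 21 DAI, Ccl4 at 3.39 at 3 DAI and -0.31 at 11 DAI, Cxcl2 at 3.81 at 3 DAI and -0.94 at 11 DAI, and Cxcl9 at 0.97 at 3 DAI. The low signals of Ccl3 and Ccl4 at 7, 11 and 21 DAI are then compared with each other. No paired analysis was possible because each group has 1 array, and for the same reason no array could be left out of a group. A signal of 64 was the limit below which members could not be compared.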
